A study of Mus musculus with 4 samples.

Results

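SOX proteins are transcription factors that bind DNA through a domain called the HMG box and are sorted into groups by its sequence. The 10 genes described here are Sox1, Sox2, Sox3, Sox4, Sox5, Sox6, Sox9, Sox11, Sox12 and Sox21. They were chosen by name, and all 10 were among the 19500 genes listed for every library, out of 22414 genes listed in any. Poly(A) RNA of brains of C57BL/6 mice, taken on embryonic day 13, was sequenced. Of the 4 libraries, 2 came from animals labelled WT with the floxed allele Wt1fl/fl (called Wt1_flfl here) and 2 from animals labelled Wt1CKO (called Wt1_CKO), a conditional knockout of the transcription factor gene Wt1. Neither the Cre line and its target cells nor the dissected brain region is named in the labels. They also leave unsaid whether a sample is 1 animal or a pool. The p-values therefore rest on the spread between 4 samples, and the part of it that lies between animals is not known. The 2 Wt1_CKO samples differed in their sex-linked counts, given below, so they did not come from the same animal or pool. Wt1 itself was not analysed here, and the deletion was therefore not checked at the RNA level. The study concerns the proliferation and differentiation of neural progenitors, and the question here is how the SOX genes of those cells and of their daughter neurons compare between the genotypes.

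In the developing brain SOXB1 proteins (SOX1, SOX2 and SOX3) are known to keep neural cells in the progenitor state, and the SOXB2 protein SOX21 is known as a repressor that acts against them. SOXC proteins (SOX4, SOX11 and SOX12) act as cells leave the cycle and become neurons, and SOX11 is known to activate genes of young neurons. The SOXD proteins SOX5 and SOX6 lack a known activation domain and work with partner proteins. SOX5 is known for its role in deep layer cortical neurons and SOX6 for its role in cortical progenitors and in interneurons of ventral origin. The SOXE protein SOX9 is needed for stem cell character and for the later switch to glia, and SOX9, SOX5 and SOX6 also act together in cartilage.

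The genes share the coding sequence of the HMG box, and reads from it could in principle fit more than 1 gene, so this stretch is shown first. It is the run of 60 coding bases, free of gaps, in which the other 9 genes were most alike Sox2, read 5′ to 3′ from the GENCODE vM21 transcripts on GRCm38. Capitals mark the 30 bases that are identical in all 10 genes.
Sox1: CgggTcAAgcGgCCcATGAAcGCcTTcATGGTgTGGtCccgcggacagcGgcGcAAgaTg
Sox2: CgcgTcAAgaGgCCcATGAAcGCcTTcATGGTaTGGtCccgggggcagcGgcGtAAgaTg
Sox3: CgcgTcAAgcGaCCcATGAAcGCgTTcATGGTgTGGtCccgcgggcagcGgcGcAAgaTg
Sox21: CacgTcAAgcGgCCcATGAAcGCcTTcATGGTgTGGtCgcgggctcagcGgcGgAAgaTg
Sox4: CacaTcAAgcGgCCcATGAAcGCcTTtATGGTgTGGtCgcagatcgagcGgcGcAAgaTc
Sox11: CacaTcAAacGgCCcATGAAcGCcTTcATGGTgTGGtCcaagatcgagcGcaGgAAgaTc
Sox12: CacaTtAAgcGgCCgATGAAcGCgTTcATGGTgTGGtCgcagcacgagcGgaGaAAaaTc
Sox5: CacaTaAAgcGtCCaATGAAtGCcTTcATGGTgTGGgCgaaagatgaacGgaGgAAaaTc
Sox6: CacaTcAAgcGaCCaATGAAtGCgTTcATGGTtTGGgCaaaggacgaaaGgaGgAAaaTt
Sox9: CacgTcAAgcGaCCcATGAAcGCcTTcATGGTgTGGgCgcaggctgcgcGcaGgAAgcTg
The stretch lies in the single exon of Sox2 at chr3:34650539-34650598 on the plus strand, and in that of Sox12 at chr2:152397525-152397584 on the minus strand. Within it Sox1 and Sox3 each matched Sox2 at 54 of 60 bases, Sox21 at 53, Sox4 at 47, Sox9 and Sox11 at 45, Sox12 at 43, and Sox5 and Sox6 at 39 each. Pairs within a group were identical at 49 bases (Sox11 and Sox12) to 56 bases (Sox1 and Sox3), and pairs across groups at 38 (Sox1 and Sox6) to 53 (Sox21 with Sox1 and with Sox2). The ranges overlapped, and Sox21 in particular matched SOXB1 genes as closely as Sox4 matched Sox11, at 53 bases. Over whole coding transcripts the longest identical run was 48 bases, between Sox4 and Sox11, followed by 45 between Sox1 and Sox3 and 38 for both Sox1 with Sox2 and Sox2 with Sox21. A read that reaches beyond such a run can be told apart between these genes. The read length is not given in the sources used here.

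Annotated neighbours also bear on the counts, since the labels do not say whether strand was kept. The lincRNA gene Gm26735, on the opposite strand, covers 2616 bases of Sox4 exon, which is 54.6% of the gene, and was not listed for any library. Gm4675, opposite Sox21, covers 713 bases or 18.8% of its exon and had 24 to 40 counts per library against 1004 to 1228 for Sox21. Sox1 and Sox2 each lie inside an intron of a long noncoding RNA on the same strand, Sox1ot and Sox2ot, with no exon base shared. Without strand, reads of Sox4 and Sox21 in the shared bases cannot be assigned with certainty, and the level of Sox4 is the more uncertain.

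The libraries held 16219310 to 17704698 listed counts. The libraries differed beyond their genotype. Of the brain markers, forebrain genes such as Neurod6, a gene of cortical neurons, had 5236 to 13563 counts per library. Of 6 midbrain and hindbrain genes 2 were listed, and their sum was 0.112 to 0.526 CPM, with 2 to 8 counts of Pax2. Wt1_CKO replicate 1 had 4 counts of Xist, the RNA of the inactive X of females, and 512 to 1776 counts of each of 4 Y-linked genes, against 13086 to 16472 counts of Xist in the other libraries. The Wt1_CKO libraries thus differed in sex, which was not part of the fit. Wt1_flfl replicate 1 had 74251 counts of a ribosomal RNA gene that usually lacks a poly(A) tail, against 3058 to 7902 elsewhere. Fewer cells of a type and less RNA per cell cannot be told apart in such bulk samples.

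The levels of the SOX genes spanned a wide range. Counts scaled to library size (CPM, with library totals corrected for composition by TMM) were divided by the kilobases of the longest coding transcript. On that scale Sox11 had the highest level, 220 ± 11.3 CPM per kb (SD, n = 4 libraries of both genotypes), and Sox2 followed with 151 ± 18.2 and Sox12 with 75.9 ± 10.6. Sox4 with 39.1 ± 4.16, Sox1 with 38.6 ± 6.59 and Sox3 with 38.0 ± 6.27 CPM per kb had overlapping libraries and could not be ordered. Sox9 had 23.3 ± 1.86, Sox21 17.7 ± 1.92, Sox5 15.5 ± 4.01 and Sox6 11.5 ± 0.830 CPM per kb. The libraries of Sox21 overlapped with those of Sox5, and those of Sox5 with those of Sox6, while each other neighbouring pair apart from the Sox4, Sox1 and Sox3 trio was separate. With the union of all exons as length Sox5 and Sox6 fell to 7.80 and 6.69 CPM per kb and the order of the genes was unchanged. Counts of Sox11, not corrected for length, made up 53.8 to 56.6% of the counts of all 10 genes.

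**Figure D1:**
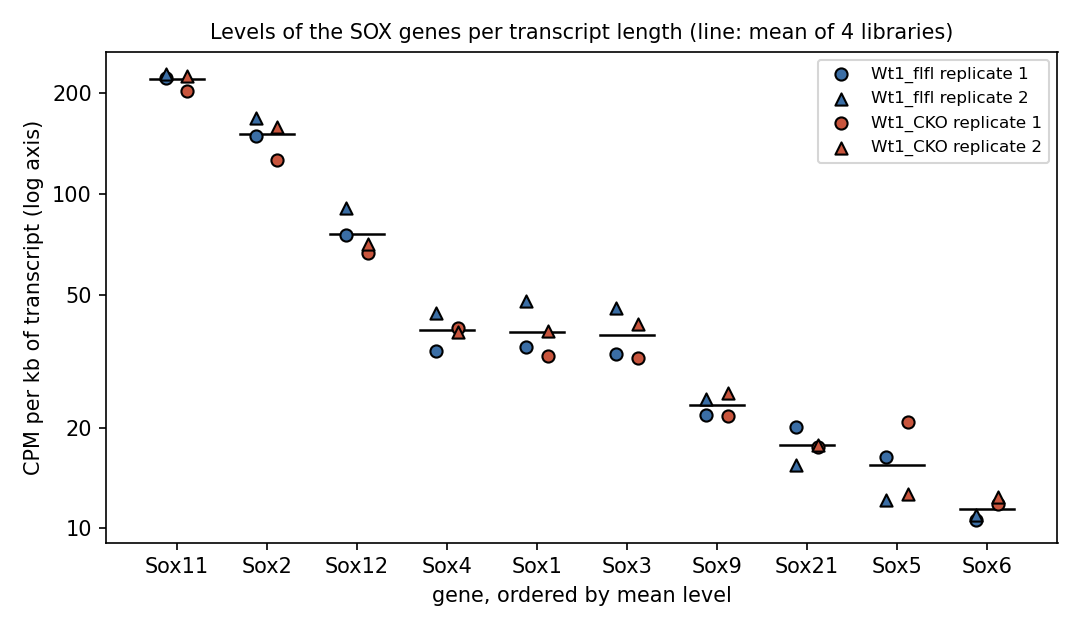
Level of each SOX gene in each of the 4 libraries, as CPM per kilobase of the longest coding transcript on a log axis, with genes ordered by mean level (black lines). Sox11 and Sox2 stand highest at 220 and 151 CPM per kb, the values of Sox4, Sox1 and Sox3 overlap, and Sox6 is lowest at 11.5.

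No SOX gene passed the test between the genotypes. Of the 10 genes, 0 passed edgeR's quasi-likelihood test at a Benjamini-Hochberg adjusted p of 0.05, where 0.00628% of the 15933 genes tested passed (1 gene). At an unadjusted p under 0.05 the count was also 0 of 10, where 249 of the 15933 genes were, and DESeq2 and limma-voom called 0 of 10 as well. That unadjusted count was 3 of 10 without Wt1_flfl replicate 1 (787 of 16645 genes) and 1 of 10 without Wt1_CKO replicate 2 (629 of 16621 genes). With 2 libraries per genotype this does not show that the levels were alike, so the interval of each difference is given. Both Wt1_CKO libraries lay below both Wt1_flfl libraries for 1 SOX gene, Sox12, where 13.5% of genes tested did so, and above them for 1, Sox6, where 13.4% did. Within the pairs of same-numbered libraries that the authors set side by side, 5 SOX genes were lower in Wt1_CKO in both pairs (Sox1, Sox2, Sox3, Sox11 and Sox12), 2 were higher in both (Sox5 and Sox6) and 3 went opposite ways. Among all genes tested, 25.9% were lower in both, 27.0% higher in both and 47.2% opposite. The median log2 fold change was -0.04 over the SOX genes and 0.01 over all genes tested. The fold change was within 0.25 on the log2 scale for 9 of the 10, against 95.3% of the 5019 genes whose mean reached 50 CPM.

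**Figure D2:**
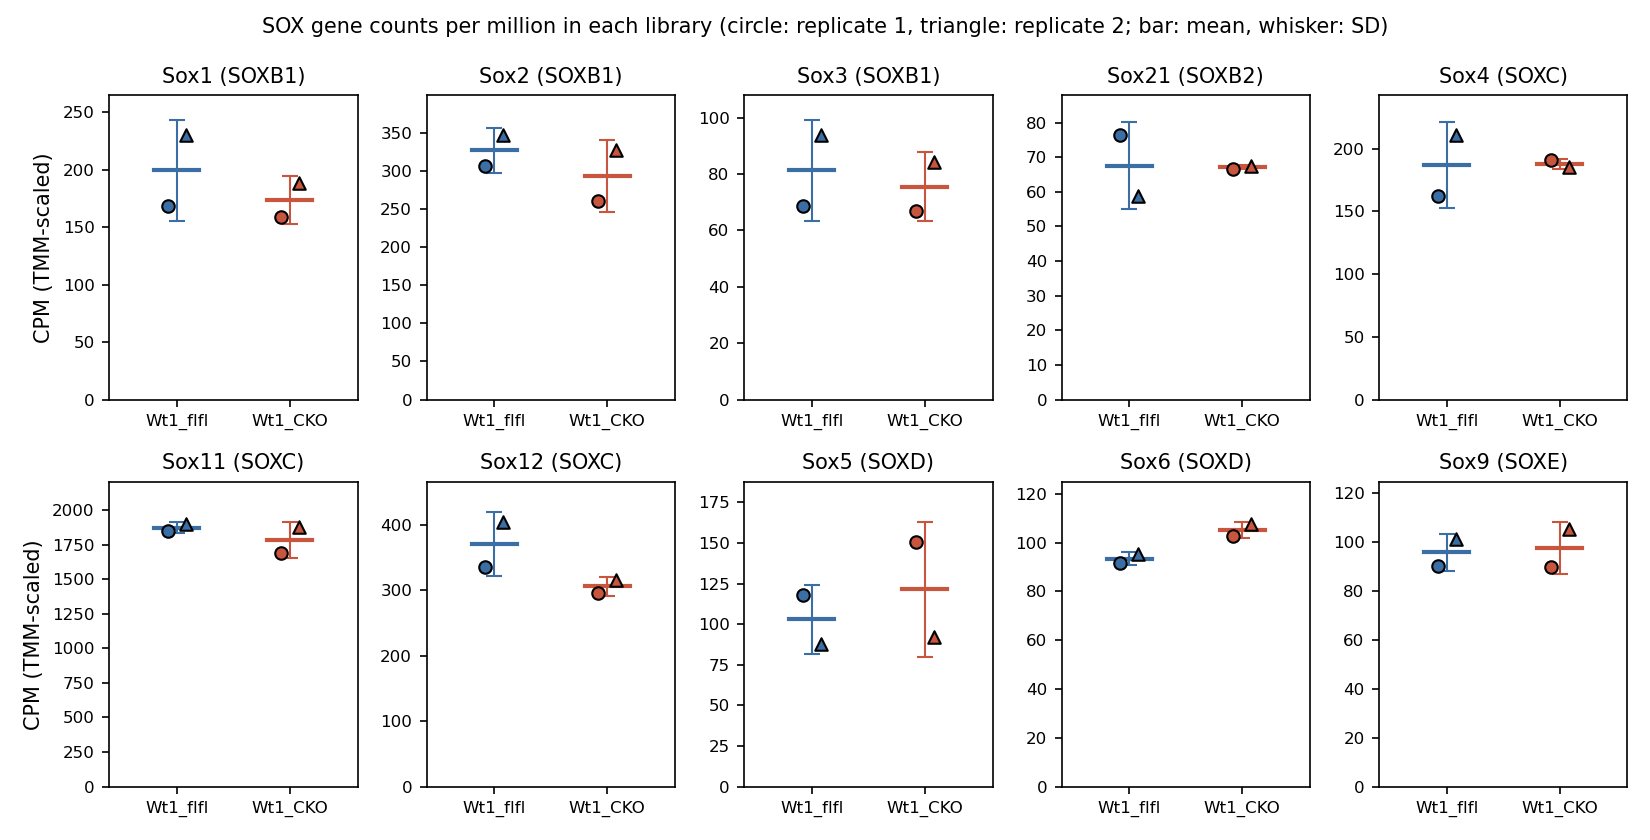
TMM-scaled CPM of each SOX gene in each library, by genotype, with circles for replicate 1, triangles for replicate 2, bars for the mean and whiskers for the SD (n = 2). The points of the genotypes are separate for Sox12, lower in Wt1_CKO, and Sox6, higher in Wt1_CKO, and overlap for the other 8 genes.

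The SOXB1 genes were highest in the same libraries. Sox2, the central factor of neural stem cells, had 307 and 348 CPM in Wt1_flfl replicates 1 and 2 and 260 and 327 CPM in Wt1_CKO replicates 1 and 2. The Wt1_CKO value was the lower one within each pair, yet the groups overlapped, since Wt1_CKO replicate 2 exceeded Wt1_flfl replicate 1. The log2 fold change of Sox2 was -0.16 with an SE of 0.189, and the limma-voom 95% interval ran from a fold of 0.706 to 1.13. Sox1, which marks early neural cells, had 168 and 231 CPM in the Wt1_flfl libraries and 159 and 189 CPM in the Wt1_CKO ones. Its log2 fold change was -0.20 (SE 0.258, interval of the fold 0.658 to 1.17). Sox3 (chromosome X, 60891366 to 60893430, GRCm38), a SOXB1 gene of progenitors and of the hypothalamus and pituitary, had 68.7 and 94.0 CPM in the Wt1_flfl libraries and 66.9 and 84.2 CPM in the Wt1_CKO ones. For these genes replicate 2 stood above replicate 1 in both genotypes, by 0.18 to 0.45 on the log2 scale, which is as large as or larger than the genotype difference. Sox3 is X-linked, and the library with Y-linked counts had 66.9 CPM against 68.7 CPM in the Wt1_flfl library of the same number.

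Together the SOXB1 genes summed to 608 ± 90.9 CPM in the Wt1_flfl libraries and 543 ± 80.7 CPM in the Wt1_CKO ones (SD, n = 2 each), and the summed values of the groups overlapped. The shares of the 3 genes differed between genotypes by less than the larger SD. Sox2 made up 54.1 ± 3.30% of the SOXB1 counts in Wt1_flfl and 54.0 ± 0.710% in Wt1_CKO, Sox1 32.6 ± 2.35% and 32.1 ± 0.897%, and Sox3 13.3 ± 0.952% and 13.9 ± 0.188% (SD, n = 2 each). The noncoding RNAs around them had overlapping groups too, with 183 ± 17.1 and 170 ± 24.5 CPM for Sox1ot and 79.3 ± 9.83 and 71.6 ± 19.4 CPM for Sox2ot in Wt1_flfl and Wt1_CKO (SD, n = 2 each), and neither passed edgeR's test. The direction of Sox1 turned without Wt1_flfl replicate 2 (log2 fold change 0.04), that of Sox3 turned without it (0.14) and without Wt1_CKO replicate 1 (0.05), and Sox2 came to -0.000175 without Wt1_CKO replicate 1.

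Sox21, the SOXB2 gene and a repressor, went opposite ways in the pairs. It had 76.5 and 58.7 CPM in the Wt1_flfl libraries and 66.7 and 67.5 CPM in the Wt1_CKO ones, so that both Wt1_CKO libraries lay between the Wt1_flfl libraries. Pair 1 gave a log2 fold change of -0.20, pair 2 gave 0.20, and all libraries gave -0.01 (SE 0.191, interval of the fold 0.781 to 1.29). Its opposite-strand neighbour Gm4675 had 2.43, 1.40, 2.08 and 2.32 CPM in the order Wt1_flfl 1, Wt1_flfl 2, Wt1_CKO 1 and Wt1_CKO 2.

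Among the SOXC genes Sox12 had the smallest p of the 10 SOX genes. Sox12 (ENSMUSG00000051817, chromosome 2, 152393611 to 152398063), the least studied SOXC gene, had 336 and 405 CPM in the Wt1_flfl libraries and 296 and 316 CPM in the Wt1_CKO ones. Both Wt1_CKO libraries were below both Wt1_flfl libraries, with means of 370 ± 48.4 and 306 ± 14.0 CPM (SD, n = 2 each). The log2 fold change was -0.28 (SE 0.142), -0.18 in pair 1 and -0.36 in pair 2. It did not pass edgeR's test, with an unadjusted p of 0.0735, rank 449 of 15933 genes, and an adjusted p of 0.999955. The limma-voom interval ran from a fold of 0.674 to 1.02. Sox12 stayed negative in the 10 alternatives run, from -0.40 to -0.14, and its lowest adjusted p among them was 0.444.

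Sox11, the most abundant of the 10, had 1846 and 1901 CPM in the Wt1_flfl libraries and 1694 and 1878 CPM in the Wt1_CKO ones. The value of Wt1_CKO replicate 1 was the low one, and the groups overlapped. The log2 fold change of -0.07 (SE 0.0776) had an interval of the fold from 0.804 to 1.13, the narrowest of the 10 on the log2 scale, and it was 0.00319 without Wt1_CKO replicate 1. Sox4, a SOXC gene with a part in intermediate progenitors, had 163 and 211 CPM in the Wt1_flfl libraries and 191 and 185 CPM in the Wt1_CKO ones. It was higher in Wt1_CKO in pair 1 (0.23 on the log2 scale) and lower in pair 2 (-0.19), and the Wt1_CKO libraries lay between the Wt1_flfl libraries. The SOXC genes summed to 2431 ± 121 CPM in the Wt1_flfl libraries and 2280 ± 140 CPM in the Wt1_CKO ones (SD, n = 2 each). Within that sum the share of Sox12 was 14.3 and 16.1% in the Wt1_flfl and 13.6 and 13.3% in the Wt1_CKO libraries, which did not overlap, while the shares of Sox11 (77.1 ± 2.26 and 78.3 ± 0.903%) and Sox4 (7.66 ± 1.03 and 8.27 ± 0.690%) did (SD, n = 2 each, Wt1_flfl first). These shares are of counts not corrected for length, and with 2 libraries per genotype they were not tested.

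The SOXD genes Sox5 and Sox6 were the only ones of the 10 higher in Wt1_CKO in both pairs under TMM scaling. Sox6 (ENSMUSG00000051910, chromosome 7, 115470872 to 116038796) had 91.6 and 95.3 CPM in the Wt1_flfl libraries and 103 and 108 CPM in the Wt1_CKO ones. The replicates were close, at 93.4 ± 2.59 and 105 ± 3.43 CPM (SD, n = 2 each), and the groups did not overlap. The log2 fold change was 0.17 (SE 0.0436), with 0.16 in pair 1 and 0.17 in pair 2. It did not pass edgeR's test either, with an unadjusted p of 0.147 and an interval of the fold from 0.944 to 1.34. Over the 10 alternatives it ran from 0.14 to 0.20. Sox5 (chromosome 6, 143828425 to 144781977) had 118 and 88.0 CPM in the Wt1_flfl libraries and 151 and 92.0 CPM in the Wt1_CKO ones, the widest spread of the 10 genes on the log2 scale. Replicate 1 was above replicate 2 in both genotypes, by 0.42 and 0.71 on the log2 scale, and no other gene of the 10 was lower in replicate 2 in both. The log2 fold change of Sox5 was 0.24 (SE 0.415, interval of the fold 0.764 to 1.76), and it turned to -0.16 without Wt1_CKO replicate 1.

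Sox9, the SOXE gene of the set, had 90.1 and 101 CPM in the Wt1_flfl libraries and 89.8 and 105 CPM in the Wt1_CKO ones. The replicate 1 libraries of both genotypes were low and the replicate 2 libraries high, with a log2 fold change of 0.03 (SE 0.139, interval of the fold 0.822 to 1.26). Its direction in pair 1 was -0.01 with TMM and 0.02 in the authors' deposited table, so with listed library totals as scale 3 SOX genes were higher in both pairs. Some genes of the cartilage list had counts beside Sox9, Sox5 and Sox6, mostly collagen genes. Acan was listed for replicate 2 only, with 1 count in Wt1_flfl and 5 in Wt1_CKO. Matn1 was not listed for any library. Collagen gene Col2a1, which the embryonic neuroepithelium also expresses, had 150 ± 17.6 CPM in the Wt1_flfl libraries and 144 ± 0.696 CPM in the Wt1_CKO ones (SD, n = 2 each). Other collagen genes of the list had 381 to 542 counts per library (Col9a3, Col11a1 and Col11a2), 84 to 149 (Col9a2) and 20 to 26 (Col9a1). The other cartilage genes listed for every library were low, with 7 to 19 counts of Hapln1, 5 to 11 of Matn4, 1 to 5 of Comp and 3 to 5 of Cnmd. The list of 12 cartilage genes summed to 228 and 256 CPM in the Wt1_flfl libraries and 232 and 237 CPM in the Wt1_CKO ones, and 0 of its 7 tested genes passed.

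**Figure D3:**
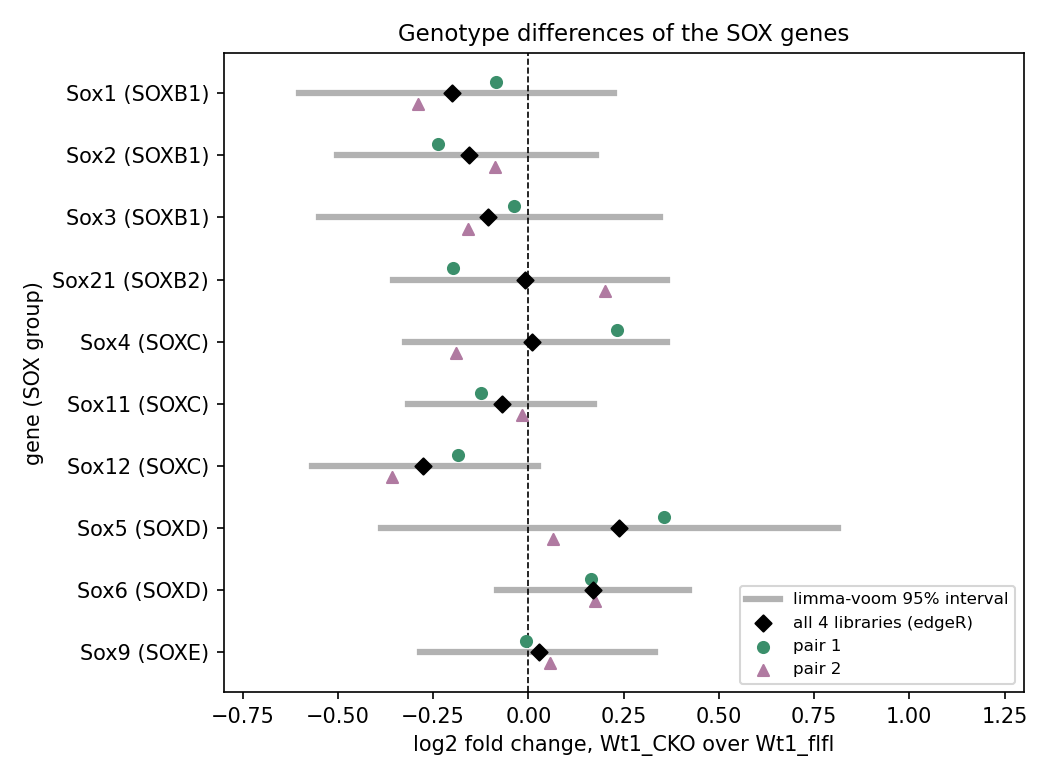
Log2 fold change (Wt1_CKO over Wt1_flfl) of each SOX gene over all 4 libraries (diamonds), within pair 1 (circles) and pair 2 (triangles), with the limma-voom 95% interval as a grey bar. Every bar crosses 0, Sox12 lies farthest below with an estimate of -0.28, and Sox6 has its pairs closest together at 0.16 and 0.17. Sox4, Sox21 and Sox9 have pairs on opposite sides of 0, with -0.01 and 0.06 for Sox9.

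The authors' deposited tables compare 1 library with 1 library, so no spread between replicates enters their p-values. In the authors' deposited table of pair 1, 7 of the 10 SOX genes had an adjusted p under 0.05, where 23.3% of all listed genes did, and 0 were marked as significant by the authors, where 3.2% were. The authors' deposited table of pair 2 also had 7 of 10 under 0.05, where 19.2% of genes were, and 0 marked, where 3.19% were. Under 0.05 in both tables and in the same direction were 3 SOX genes (Sox2 and Sox12 lower, Sox6 higher), where 5.07% of genes listed in both tables were. The ratios in the authors' deposited tables were 0.861 and 0.948 for Sox2, 0.893 and 0.786 for Sox12 and 1.14 and 1.14 for Sox6 in pairs 1 and 2. Sox4 and Sox21, 2 of the 10, were under 0.05 in both tables in opposite directions, where 3.1% of genes were. In the authors' deposited tables the ratio of Sox4 was 1.19 and 0.883 and that of Sox21 was 0.885 and 1.16. These p-values compare libraries and not genotypes. Small ratios pass at high counts, as for Sox11 in pair 1, with a ratio of 0.931 at 29650 and 30131 counts. The shares above are over all listed genes, many of them with low counts. A share over genes with counts like those of the SOX genes was not computed, so 7 of 10 is no sign of an excess.

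The libraries fell in the same order for several SOX genes, which was seen after their values were known. Sox1, Sox2, Sox3 and Sox11 each were highest in Wt1_flfl replicate 2, then Wt1_CKO replicate 2, Wt1_flfl replicate 1 and Wt1_CKO replicate 1, an order held by 7.6% of genes tested. The summed markers of the ventral telencephalon and of GABAergic neurons had the same order, with 2117, 1864, 1584 and 1299 CPM. So did the sum of the oligodendrocyte lineage markers with 122, 86.8, 73.5 and 66.5 CPM. The sum of the red cell genes had it too, with 1838, 1779, 968 and 913 CPM, as did the neural crest and Schwann cell sum, with 17.0, 14.1, 13.1 and 11.4 CPM. These orders are of sums and not of each gene. Olig2 and Pdgfra had the order of the oligodendrocyte sum, and Olig1, Cspg4 and Nkx2-2 did not. Of the red cell genes only Alas2 had the order, and Hbb-y and Hba-x were highest in Wt1_CKO replicate 2. Sox5 had the reverse order of replicates, highest in Wt1_CKO replicate 1, then Wt1_flfl replicate 1, Wt1_CKO replicate 2 and Wt1_flfl replicate 2, as 8.45% of genes tested did. The summed deep layer cortical neuron genes had that order with 919, 902, 767 and 727 CPM, and the forebrain list with 1761, 1568, 1230 and 1037 CPM. The sum of the genes tied to SOX9 in glia had it with 1022.5, 785, 653 and 566 CPM. In all, 7 of the 10 SOX genes were higher in replicate 2 in both genotypes, against 32.3% of genes tested. Some list sums were separate between the genotypes, as Sox12 and Sox6 were. The 7 genes tied to SOXC proteins in young neurons summed to 5928 and 5620 CPM in Wt1_flfl against 5594 and 5224 CPM in Wt1_CKO. The endothelial sum had the library order of Sox12, though its middle libraries were nearly equal. The 5 thalamic genes summed to 146 and 104 CPM in Wt1_flfl against 62.8 and 72.9 CPM in the Wt1_CKO ones, with 3 of 5 lower in both pairs, 0 called and a median of -1.37 on the log2 scale. The call of 0 depended on the fit. Olig3, a gene of thalamic progenitors, counted 182 and 157 in the Wt1_flfl libraries against 21 and 18 in the Wt1_CKO ones. Its log2 fold change was -3.19 and its edgeR adjusted p was 0.118. It was called with the DESeq2 test (adjusted p = 6.7e-10), with the replicate block in edgeR (3.2e-06) and with any 1 library left out (2.2e-05 to 0.0499). The 8 genes of meninges and mesenchyme summed to 51.4 and 86.3 against 51.4 and 49.9 CPM, which were not clearly separate, with 4 of 8 lower in both pairs and 0 called. One of them, the collagen gene Col1a1, was called with the replicate block (log2 fold change -1.10, edgeR adjusted p = 0.0425). The part of such regional and cellular differences between libraries in the SOX values was not tested.

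**Figure D4:**
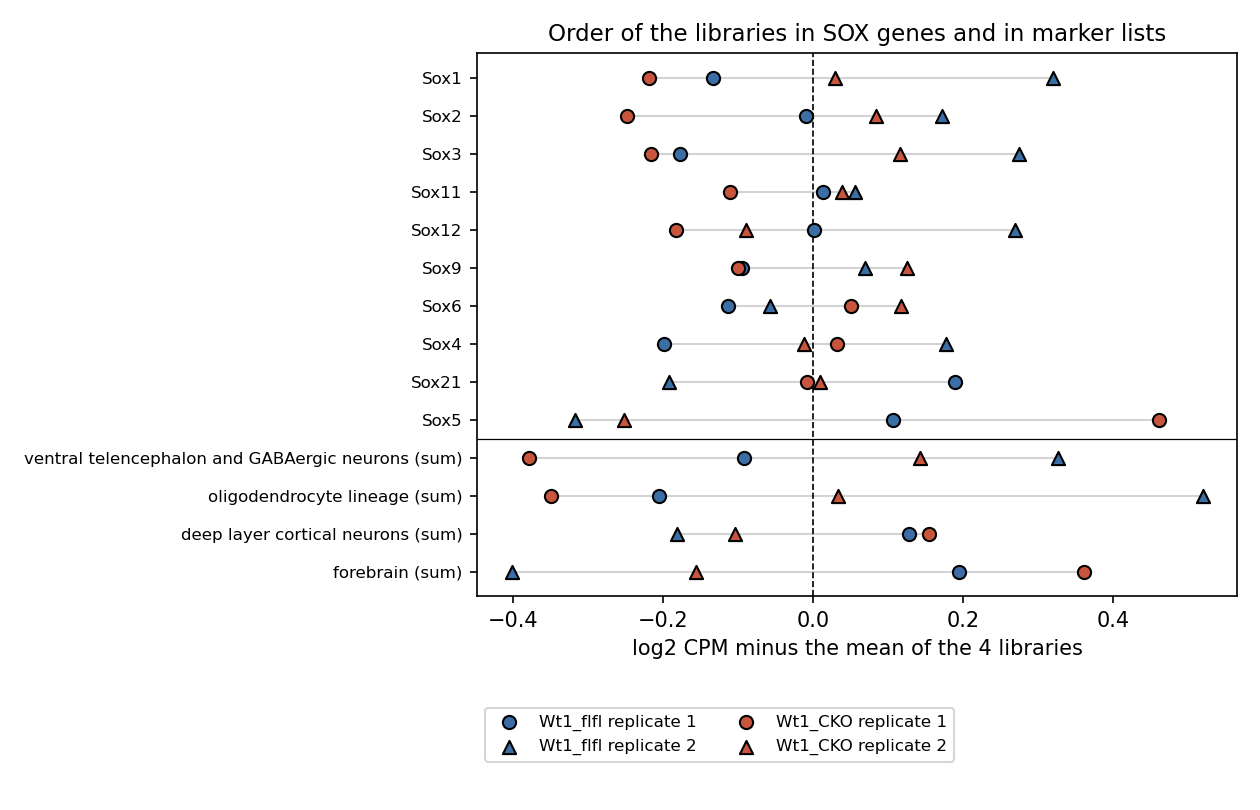
Log2 CPM of each SOX gene and of the summed genes of 4 marker lists in each library, as the difference from the mean of the 4 libraries. Sox1, Sox2, Sox3 and Sox11 and the ventral telencephalic and oligodendrocyte lineage sums share 1 order of libraries, with Wt1_flfl replicate 2 highest, and Sox5 shares another with the deep layer and forebrain sums. Sums not drawn, such as that of the red cell genes, also had the first order.

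The other SOX genes of the mouse had lower counts than the 10. Of 10 further genes 9 were listed and 6 tested, of which 0 passed. The Wt1_CKO value was lower in both pairs for 3 of them and higher in both for 0, and their median log2 fold change was -0.11. Sox14, a SOXB2 gene of diencephalic and midbrain neurons, had 9 and 112 counts in Wt1_flfl replicates 1 and 2 and 4 counts in each Wt1_CKO library. It was too low in 3 libraries to be tested, and the high value stood in Wt1_flfl replicate 2 alone. That library was also high in Nkx2-2, a gene of ventral progenitors of the neural tube, with 160 counts against 10, 4 and 1, and in Nkx2-1 with 4612 against 1687 to 3293, and the part of this in the Sox14 value was not tested. The authors' deposited table marks Sox14 as lower in pair 2, with a ratio of 0.0357. Sox13, the third SOXD gene, had 35.5 ± 5.83 and 30.7 ± 1.72 CPM and the SOXE gene Sox8 37.6 ± 1.69 and 34.5 ± 0.782 CPM in the Wt1_flfl libraries and Wt1_CKO (SD, n = 2 each). The endothelial SOXF genes held 49 to 72 counts for Sox7, 55 to 105 for Sox17 and 117 to 167 for Sox18. Sox18 had 10.4 and 7.54 CPM in the Wt1_flfl libraries and 6.58 and 7.38 CPM in the Wt1_CKO ones, and did not pass edgeR's test. Its genotypes did not overlap, but replicate 2 had 129 counts in Wt1_flfl and 127 in Wt1_CKO. Both Wt1_CKO libraries were also below both Wt1_flfl libraries for Sox8, as for 13.5% of genes tested. The 9 endothelial markers summed to 141 and 153 against 131 and 141 CPM. Sox10, of neural crest and oligodendrocytes, had 21 to 42 counts, and 6 crest and Schwann cell markers summed to 11.4 to 17.0 CPM.

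Partners and linked genes gave no call. Of 8 partners of SOX proteins, 0 passed, 2 were higher and 4 lower in both pairs, and the median on the log2 scale was -0.01. Pou3f1, a POU factor, had 61.2 ± 1.98 CPM in the Wt1_flfl libraries and 48.0 ± 5.75 CPM in the Wt1_CKO ones (SD, n = 2 each). For Pou3f1 the log2 fold change was -0.35 (SE 0.127) and the unadjusted edgeR p 0.0297. Of 13 genes tied to SOXB1 proteins in progenitors, 0 passed, 5 were higher and 2 lower in both pairs, with a median of 0.06. Gli3, a transcription factor of Hedgehog signalling, ranked first among them with 78.0 ± 1.84 and 98.7 ± 2.31 CPM (SD, n = 2 each, Wt1_flfl first) and an unadjusted edgeR p of 0.0138. Of 7 genes tied to SOXC proteins in young neurons, 0 passed, 2 were higher and 4 lower in both pairs, with a median of -0.09, and the neuronal tubulin gene Tubb3 had the smallest p, with a log2 fold change of -0.18 (SE 0.0595). Of 6 genes tied to SOX9 in glia, 0 passed and 3 were higher in both pairs, with a median of 0.17. Fgfr3 had the smallest p among them (unadjusted edgeR p 0.108). It had 86.0 and 135 CPM in the Wt1_flfl libraries and 136 and 154 CPM in the Wt1_CKO ones, higher in replicate 2 of both genotypes. Nfib, which is also high in cortical neurons, had 461 and 248 CPM in the Wt1_flfl libraries and 615 and 294 CPM in the Wt1_CKO ones, higher in replicate 1 of both genotypes like Sox5. Markers of the ventral telencephalon and GABAergic neurons were lower in both pairs for 10 of 11 genes, against 25.9% of all genes tested. Their median was -0.23, with 0 calls. Their sums overlapped between the genotypes, with 1584 and 2117 CPM in Wt1_flfl and 1299 and 1864 CPM in Wt1_CKO replicates 1 and 2. Genes of the same cells vary together, so the 11 are not independent.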

How the data were processed

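Poly(A) RNA of 4 mouse brain libraries, 2 Wt1_flfl and 2 Wt1_CKO, was sequenced. The submitters' processing notes name HTSeq 0.6.0, TopHat2 2.0.12, Bowtie2 2.2.3 and, as build, mm9, but 92.1% of 22368 gene IDs found in GENCODE vM21 have its GRCm38 positions, which are used here. The authors deposited 1 table per replicate number, with whole-number counts per gene, CPM (the deposited CPM columns are counts over a library total), a fold ratio, its log2 value and p-values and adjusted p-values for 1 library against 1, whose test the sources used here do not give.

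For the 19500 genes in both tables, counts entered edgeR 4.0.16 (R 4.3.3) and its quasi-likelihood F test on genotype, after filterByExpr (minimum count 10) and TMM, with Benjamini-Hochberg adjustment over 15933 genes at 0.05. The common biological coefficient of variation was 0.171. Intervals come from limma-voom (limma 3.58.1). Pair fold changes are differences of log2 CPM (prior count 2), and each SE comes from the 2 group SDs on that scale, so it is imprecise at n = 2. The code was tested on simulated data. Members and gene lists were chosen with earlier results of these data known. Named genes were the members, the other SOX genes, overlapping genes and up to 3 genes per list by smallest p. Nkx2-1, Acan, Matn1, Comp, Cnmd, Matn4, Col2a1, Col9a2, Col9a3, Col11a2, Pax2 and Neurod6 fall outside that rule. So do Pdgfra, Cspg4, Alas2, Hbb-y and Hba-x, and all of these were chosen as markers after their values were seen. The alternatives were DESeq2 size factors, the DESeq2 1.42.0 test, limma-voom, no filter, at least 50 counts in 2 libraries, a replicate block and leaving out each library. Reads carry no molecular identifiers, so counts are not counts of independent molecules. Protein sequences were not used here.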

Additional observations from a re-analysis of the deposited data

How the results depend on the processing

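No SOX gene was called under any of the 10 alternatives. The count over all genes was 1 and stayed 1 with DESeq2 size factors, limma-voom and both other filters. It was 5 with the DESeq2 test and ran from 3 to 73 when 1 library was left out (73 without replicate 1 of Wt1_flfl, 29 without its replicate 2, and 3 and 7 without replicates 1 and 2 of Wt1_CKO). With the replicate block it was 42, with 0 SOX genes among them, and 3 SOX genes and 1146 genes in all had an unadjusted p under 0.05. The marker genes Olig3 (-3.19), Nkx2-2 (-4.69) and Col1a1 (-1.10) were called in edgeR with the block. With all libraries kept, edgeR did not call them without the block, but the DESeq2 test called Olig3. Nkx2-2 was also called without Wt1_flfl replicate 1, and Ttr without Wt1_flfl replicate 2. The labels do not say that a number marks a shared source. Deviations of same-numbered libraries had a Pearson correlation of 0.28 across 15933 genes, which are not independent replicates. Sox2, Sox6 and Sox12 kept their direction in all 10 alternatives, though Sox2 came to -0.000175 without Wt1_CKO replicate 1. Other log2 fold changes turned when 1 library was left out, and the cause beyond fewer libraries was not tested. They ran from -0.41 to 0.0439 for Sox1, -0.31 to 0.14 for Sox3, -0.17 to 0.21 for Sox4, -0.16 to 0.55 for Sox5, -0.0893 to 0.13 for Sox9, -0.14 to 0.00319 for Sox11 and -0.19 to 0.19 for Sox21. Sox4 turned without Wt1_flfl replicate 1 (-0.17) and Wt1_CKO replicate 1, Sox9 without Wt1_flfl replicate 1 and Wt1_CKO replicate 2, and Sox21 without Wt1_flfl replicate 1. Among other genes the range was -0.37 to 0.16 for Sox7, -0.41 to 0.63 for Sox10, -0.62 to 0.35 for Sox17, -0.26 to 0.0348 for Sox1ot, -0.45 to 0.11 for Sox2ot, -0.14 to 0.65 for Gm4675 and -0.27 to 0.87 for Nfib. Of the markers with the smallest p in their lists, it was -1.40 to 0.16 for Tfap2a (crest), -0.45 to 1.12 for Crybb1 (lens), -0.29 to 2.64 for Crym (deep layer) and -2.68 to 6.33 for Ttr (choroid plexus). Sox21 was 0.00392 with limma-voom and 0.000485 with the replicate block. The log2 ratio of Sox21 as the SOXB2 sum turned from -0.01 to 0.00559 with listed library totals. With 2 libraries per genotype the spread between libraries limits the SOX genes. Sox14, Sox15 and Sox30 could not be tested. Sox30 had low counts in every library, Sox14 in all but Wt1_flfl replicate 2, and Sox15 was listed for replicate 1 only.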
